A study of Glycyrrhiza uralensis with 15 samples.

Results

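The subject is a set of 2312 transcribed loci of the licorice plant Glycyrrhiza uralensis whose IDs begin with ONT. The other rows of the gene table carry IDs that begin with Glyur. A locus was taken as a member when its ID began with ONT and it reached 1 CPM (read counts scaled to a common library size, 1 CPM being 4 to 5 reads) in at least 3 of 15 libraries. Of 2722 ONT loci in a table of 30197 genes, 2312 were members, and 20342 of 27475 Glyur genes passed the same filter and served for comparison. No group label and no response to treatment entered the choice. The 3 libraries asked for equal the size of 1 group, so a locus high in 1 group alone could pass. Of the members, 130 reached 1 CPM in exactly 3 libraries.

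Full-length cDNA sequencing reads a transcript from end to end, so transcripts that match no annotated gene can be collected into loci of their own. In plants such loci are known to include unannotated protein-coding genes, long non-coding RNAs, antisense transcripts, RNAs of transposable elements and fragments of annotated genes. The files do not say which of these a locus is. They pair no ID with a gene name, position or sequence, so members are named by ID alone and no role can be given to any of them. G. uralensis is a desert legume whose roots store the sweet saponin glycyrrhizin. Bacillus pumilus is a soil bacterium used to promote plant growth, and silicon, which roots take up as silicic acid, is known to ease drought stress in many plants.

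The libraries came from whole seedlings 45 days old, sown at 60 seeds to a pot in sterilized desert sand without nutrients, with 3 libraries in each of 5 groups. DBSi seedlings were droughted and received both Bacillus pumilus strain G5 and silicon, and their moisture and silicon dose are not given in the labels. DSi seedlings grew at 35 to 45% of saturation moisture with silicon at 2 mM, DB seedlings at the same moisture with G5, and D seedlings at that moisture with neither. CK seedlings were watered to 65 to 75%. DB-3 is replicate 3 of DB, and so on. The libraries held from 3039422 (D-2) to 4043823 (DSi-3) reads assigned to genes, so that 1 read was worth 0.247 to 0.329 CPM. Whether the replicates of a group are separate pots is not in the labels, and a p-value here therefore covers the spread between libraries, which may be technical. In RNA of whole seedlings, fewer cells of a kind and less RNA per cell cannot be told apart. With no gene names, the labelled tissue could not be checked against organ markers. Over all tested genes, DB-3, D-2 and CK-3 were lowest on the second principal component, at -75.21, -47.32 and -45.39, apart from their own groups. DBSi-2 also lay apart from its group, at 8.52 against 45.82 in DBSi-1 and 48.62 in DBSi-3, and was left out only on its own. Counts of calls without DB-3, D-2 and CK-3 together are given beside the results they move.

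The ONT prefix separated isoforms less cleanly than genes. Isoforms with Glyur IDs were placed by their ID, and for the others reads were matched to reads of genes over all 15 libraries. In this way 99.383% of 53338 isoforms found a place. Of the isoforms with ONT IDs, 3384 belonged to ONT loci, 25669 belonged to Glyur genes and 329 could not be placed. An isoform with an ONT ID was therefore mostly counted to a Glyur gene, while an ONT locus was counted as a row of its own. Whether such a locus is separate from the Glyur genes cannot be told from the counts. In 2235 members the reads equalled those of all isoforms with the same ID stem. In the other 77 they equalled those of some of these isoforms, and the rest were counted to a Glyur gene or left unplaced. For 74 of the 77 a single Glyur gene shared the stem, and the member was the lower of the pair in 66. Its median was 2.02 CPM in these pairs, against 20.9 CPM for the Glyur partner. Reads may have been divided between the partners by the authors' counting, so members of these pairs are uncertain.

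Members were mostly of low abundance. The median of the mean level over 15 libraries was 2.76 CPM in members and 13 CPM in Glyur genes. At least 10 CPM was reached by 377 members (16.3%), against 56.7% of Glyur genes, and 100 CPM by 48 members (2.08%), against 8.54%. In the single libraries the median ran from 2.17 CPM (DB-3) to 2.76 CPM (DB-2) in members and from 10.2 CPM (DB-3) to 13.9 CPM (CK-2) in Glyur genes, so that no library brought the medians near each other. On the log2(CPM + 1) scale the median of members lay 1.95 below that of Glyur genes on average over libraries, a difference of -1.95 ± 0.0991 (SD, n = 15) that ran from -2.19 to -1.82. An exact sign-flip permutation test over the libraries gave a two-sided p of 6.10e-05, the smallest that 15 libraries can give. The libraries share the same loci, so this p covers the spread between libraries and not that between loci.

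**Figure D1:**
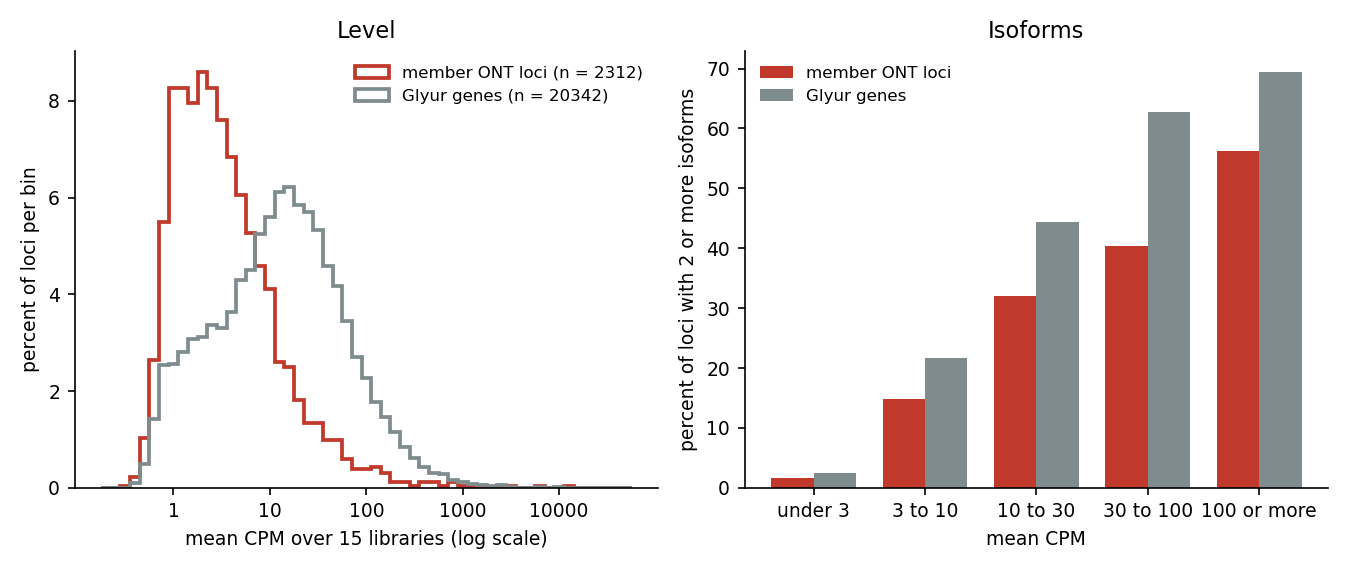
Left, percent of loci (y axis) by mean CPM over 15 libraries (x axis, log scale) for 2312 member ONT loci and 20342 Glyur genes. Right, percent of loci with 2 or more isoforms in 5 ranges of mean CPM. Members peak at lower CPM, with a median of 2.76 CPM against 13 CPM, and the bar of members is the lower one in each of the 5 ranges.

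A few abundant members held most of the reads. Members together took 5.39% of all reads, and the share ran from 4.74% (CK-2) to 6.15% (DBSi-2) over libraries. The most abundant member, ONT.1146, held 23.7% of all member reads, the top 5 held 49.4% and the top 100 held 79.2%. ONT.1146, with a single isoform, stood at 9364, 18073 and 12812 CPM in DBSi, 11387, 18994 and 6420 CPM in DSi and 14555, 15535 and 12680 CPM in DB. It stood at 9505, 12237 and 11035 CPM in D and 15178, 7774 and 17325 CPM in CK. The highest and the lowest of the 15 libraries were both from DSi. The F-test of limma over the 5 groups gave it an adjusted p of 0.967.

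The next members in abundance were ONT.7643 (mean 6942 CPM), ONT.9836 (2911 CPM), ONT.9541 (2490 CPM) and ONT.17384 (1492 CPM). ONT.9541 averaged 2949 ± 561 CPM in DBSi, 2141 ± 115 CPM in DSi, 2925 ± 295 CPM in DB, 2132 ± 422 CPM in D and 2302 ± 360 CPM in CK (SD, n = 3 each). ONT.9836 ran from 1122 CPM (CK-3) to 5601 CPM (CK-1), both within CK, so its spread inside 1 group covered its whole range. Its isoforms ONT.9836.1 and ONT.9836.2 took a median of 50.4% and 49.6% of its reads. ONT.7643 gave a median of 99.9% of its reads to isoform ONT.7643.1. None of the 5 most abundant members passed the F-test of limma (adjusted p from 0.488 to 0.967).

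Members were less often split into isoforms. Counting isoforms at 1 CPM in at least 3 libraries, members had 1.17 isoforms per locus and Glyur genes 1.61. Of the 2312 members, 2046 (88.5%) had a single isoform, and 266 (11.5%) had 2 or more, against 36.4% of Glyur genes. Within single libraries, members with a read had 0.472 ± 0.0109 fewer isoforms with a read than Glyur genes (difference -0.472, SD, n = 15; exact sign-flip permutation test, two-sided p = 6.10e-05, again the smallest possible). The gap in the share with 2 or more isoforms was present in every range of level. In the mean number it was absent under 3 CPM, where 1219 members lay and both classes had 1.02 isoforms per locus. Of members at 10 to 30 CPM 32.1% had 2 or more isoforms, against 44.4% of Glyur genes, and at 100 CPM or more 56.2%, against 69.5%. Under 3 CPM the shares were 1.64% and 2.48%. Grouped by the stem of the ID alone, members would have 1.25 isoforms and Glyur genes 0.597, since 8301 Glyur genes have no isoform under their own ID. In loci with 2 or more isoforms, the leading isoform took a median of 68.1% of the reads in members and 80.2% in Glyur genes. These sets were not matched for level. At least 10 CPM was reached by 140 of the 266 members and 6265 of the 7377 Glyur genes. In a low locus a minor isoform reached 1 CPM only as a large part of the reads, and the effect of level on these medians was not tested.

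The members with the most isoforms were ONT.20861 with 8 and ONT.10145 with 7. ONT.10145 was 1 of 4 members with 7 isoforms. In ONT.20861, isoform ONT.20861.11 led with a median of 81.8% of the reads, but its share ran from 48.5% to 93.1% over libraries. That share was 90.7 ± 3.05% in DBSi, 82.8 ± 3.05% in DSi, 69 ± 18.6% in DB, 70.6 ± 16.4% in D and 81.6 ± 7.38% in CK (SD, n = 3 each). In ONT.10145 no isoform took most reads in a typical library, since ONT.10145.2 had a median of 45.2% and ONT.10145.6 a median of 19.4%. All 7 of its isoforms reached 1 CPM in at least 13 libraries.

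Libraries of 1 group differed more in members than in Glyur genes of similar level. Among loci at 10 CPM or more, the median within-group SD of log2(CPM + 1) was 0.465 in 377 members and 0.278 in 11537 Glyur genes. At 100 CPM or more, where reads are many, it was 0.498 in members and 0.27 in Glyur genes. By group it was 0.378 against 0.25 in DBSi, 0.327 against 0.226 in DSi, 0.39 against 0.251 in DB, 0.404 against 0.257 in D and 0.434 against 0.235 in CK, with members first. A within-group SD above 0.862, the 95th percentile of all loci at 10 CPM or more, was found in 53 members (14.1%) and 543 Glyur genes (4.71%). These shares are a description and carry no test.

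The member with the widest spread was ONT.14001. It had 0, 0 and 232 CPM in DBSi, 58.2, 0 and 18.3 CPM in DSi, 40, 0 and 93.1 CPM in DB, 143, 41.1 and 5.77 CPM in D and 17.2, 0.569 and 1.45 CPM in CK. High and absent libraries stood side by side in DBSi, DSi and DB. ONT.5273 behaved likewise, with 0.3, 143 and 2.79 CPM in DBSi and 22.3, 112 and 0.29 CPM in CK. The steadiest members were ONT.18082 and ONT.12009. ONT.18082 averaged 770 ± 56.8 CPM in DBSi, 933 ± 102 CPM in DSi, 828 ± 76.3 CPM in DB, 936 ± 72.2 CPM in D and 848 ± 23.2 CPM in CK (SD, n = 3 each), with a within-group SD of 0.116 on the log2 scale. ONT.12009 stayed between 20.5 CPM (DBSi-3) and 32.9 CPM (DB-3).

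**Figure D2:**
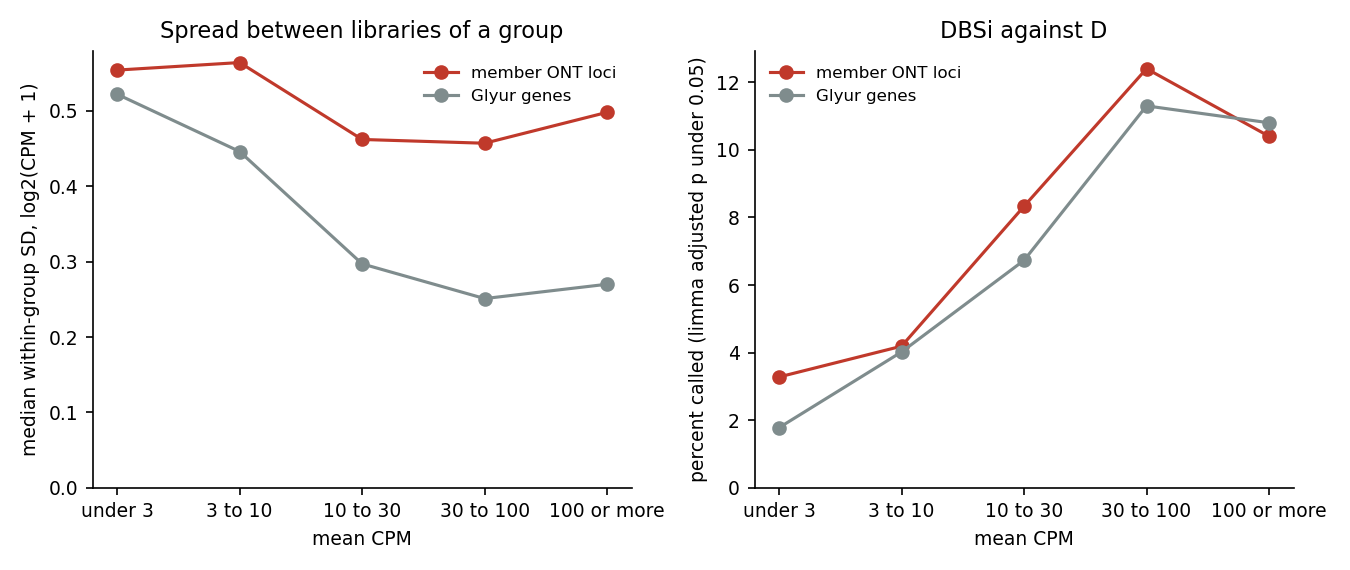
Left, median within-group SD of log2(CPM + 1) (y axis) in 5 ranges of mean CPM (x axis) for member ONT loci and Glyur genes. Right, percent of loci called in DBSi against D in the same ranges. The line of members lies above that of Glyur genes in all 5 ranges on the left. On the right it is the lower one only at 100 CPM or more, with 10.4% of members and 10.8% of Glyur genes called. Under 3 CPM 3.28% and 1.78% are called.

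Most members were read widely. A read was found in all 15 libraries for 1482 members (64.1%), against 86.8% of Glyur genes, and no member had reads in 1 group alone. In 85 members (3.68%) all 3 libraries of at least 1 group held 0 reads, against 0.787% of Glyur genes. The group at 0 was DBSi for 33, DSi for 28, DB for 21, D for 9 and CK for 18 of them, with some members at 0 in several groups. A count of 0 allows up to 3 reads per library. Of these 85, ONT.1344 and ONT.16642 had the highest means. ONT.1344 had 0 reads in all DBSi libraries, 5.29, 15.6 and 31.4 CPM in DSi, 0.299, 0 and 0.31 CPM in DB, 0, 1.65 and 5.77 CPM in D and 0, 0.285 and 42.4 CPM in CK. ONT.16642 had 0 reads in all DB libraries, and 27.6, 0 and 1.55 CPM in DBSi. In neither did limma's F-test pass the threshold (adjusted p = 0.193 and 0.568).

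A further 410 ONT loci fell below the filter, of which 145 reached 1 CPM in 2 libraries and 164 in 1. The median of the mean level was 0.71 CPM in the 130 members at exactly 3 libraries and 0.56 CPM in the 145 loci at 2. The extremes on both sides had high means from a single library. ONT.17712, just inside, had 739 CPM in CK-2 and 28.5 CPM in CK-3, and ONT.17894, just outside, had 1633 CPM in CK-2 and 31.1 CPM in CK-3. Both stood at 1.2 CPM or less in the other 13 libraries.

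Loci of that kind clustered in 1 watered library. They were looked for after these values were seen, and no test is attached. Of all ONT loci with at least 30 reads, 30 had at least 80% of their CPM in 1 library, and for 17 of the 30 that library was CK-2. Of these 17, 4 were members. They summed to 9903 CPM in CK-2, 137 CPM in CK-3 and 5.5 CPM in CK-1, and to between 0.304 CPM (D-3) and 4.04 CPM (DB-3) in the droughted libraries. They made up 0.99% of the reads of CK-2. The highest, the member ONT.13374, had 17557 reads in CK-2 (4996 CPM), 183 reads in CK-3 (53.1 CPM) and 3 reads in CK-1 (0.971 CPM). It stayed at 1.86 CPM or less in all 12 droughted libraries. Glyur genes showed the same library, with 42 of the 51 that met the same rule read mostly in CK-2. Whether RNA from another source entered CK-2 was not tested.

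**Figure D3:**
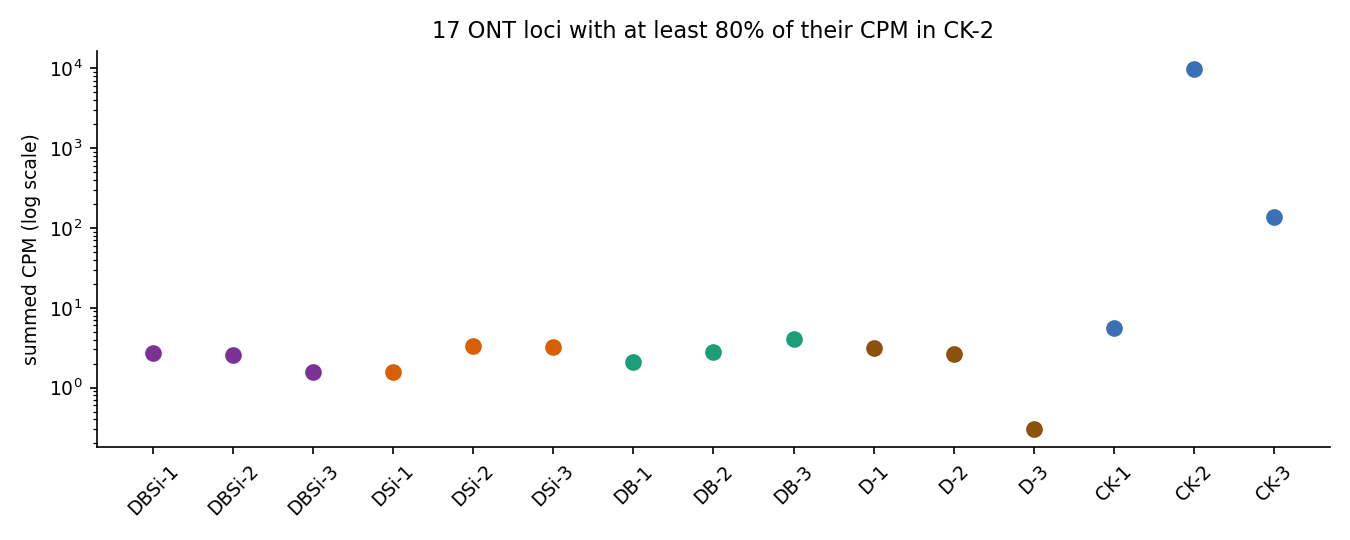
Summed CPM (y axis, log scale) of the 17 ONT loci that had at least 80% of their CPM in CK-2, in each of 15 libraries (x axis), coloured by group. CK-2 stands at 9903 CPM and CK-3 at 137 CPM, and the other libraries at 5.5 CPM or less.

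The share of reads that fell in members was compared between groups. It was 5.47%, 6.15% and 4.95% in DBSi (mean 5.52 ± 0.601%, SD, n = 3) and 4.97%, 5.95% and 4.76% in DSi (5.23 ± 0.635%). It was 5.88%, 5.6% and 5.38% in DB (5.62 ± 0.248%), 5.1%, 5.35% and 5.09% in D (5.18 ± 0.147%) and 5.8%, 4.74% and 5.76% in CK (5.43 ± 0.596%). The DB libraries all lay above the D libraries, a difference of 0.442 points (exact permutation test, two-sided p = 0.1, the smallest that 3 against 3 can give). The other 3 pairs of groups overlapped. The differences were 0.341 points for DBSi against D (exact p = 0.6), 0.051 points for DSi against D (exact p = 1) and -0.254 points for D against CK (exact p = 0.4). Without the 10 most abundant members, the difference of DB from D was 0.131 points (exact p = 0.5) and that of D from CK -0.329 points (exact p = 0.1). Without the 4 members among the 17 loci read mostly in CK-2, the difference of D from CK was -0.057 points. Single libraries moved these differences. That of D from CK was -0.0708 points without CK-1, -0.598 without CK-2 and -0.0921 without CK-3. That of DBSi from D was 0.0277 points without DBSi-2 and 0.627 without DBSi-3. That of DSi from D turned to -0.311 points without DSi-2.

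Responses were tested with limma on log2(CPM + 1) over all 22654 genes that passed the filter, and a call is a Benjamini-Hochberg adjusted p under 0.05. In the F-test over 5 groups, 67 members (2.9%) were called, against 4.36% of all genes tested. The share called went with level. At 10 CPM or more, 7.16% of members and 6.24% of Glyur genes were called, and under 3 CPM 1.72% and 1.35%. At 3 to 10 CPM the shares were 2.65% and 3.09%. Of the 67, 41 (61.2%) had their highest mean in DBSi, 4 in DSi, 3 in DB, 7 in D and 12 in CK. Over all 2312 members DBSi had the highest mean in 22.1%, and over all called genes in 62.5%. All 3 DBSi libraries lay above the other 12 libraries in 66 members (2.85%, against 3.54% of all genes tested). They lay below the other 12 in 22 members (0.952%, against 1.24%). The F-test called 40 members without DBSi-1, 31 without DBSi-2 and 32 without DBSi-3.

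The smallest p of the F-test belonged to ONT.9239 and ONT.1281 (limma adjusted p = 0.000883 and 0.000992). ONT.9239 stood at 94.3, 105 and 75.4 CPM in DBSi, 52.3, 28.8 and 32.6 CPM in DSi, 34.1, 35.3 and 21.1 CPM in DB, 11.2, 22.7 and 21.6 CPM in D and 14.2, 15.1 and 16.5 CPM in CK. All 3 DBSi libraries were above every other library, and the DSi and DB means of 37.9 and 30.2 CPM lay between those of DBSi (91.6 CPM) and D (18.5 CPM).

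Seedlings given both treatments differed from droughted ones at 106 members, which is 4.58% of members against 6.18% of all genes tested. Of these, 83 were higher in DBSi and 23 were lower, 3.59% and 0.995% of members against 4.57% and 1.61% of all genes tested. The 83 had a median level of 10.7 CPM in DBSi and 2.38 CPM in D, and the 23 a median of 0.684 CPM in DBSi and 4.89 CPM in D. All 3 DBSi libraries lay above all 3 D libraries in 286 members (12.4%, against 12% of all genes tested) and below them in 214 (9.26%, against 11.7%). The median log2 difference over all members was 0.004, against -0.049 over all genes tested. The share called went with level. At 10 CPM or more, 9.55% of members and 8.96% of Glyur genes were called, and under 3 CPM 3.28% and 1.78%. The count rested on single libraries, and was 53 without D-1, 58 without D-3, 66 without either DBSi-1 or DBSi-2 and 43 without DBSi-3. In all 15 fits that each left out 1 library, 31 of the 106 members stayed called, 26 of them higher. Without DB-3, D-2 and CK-3 together limma called 103 members.

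**Figure D4:**
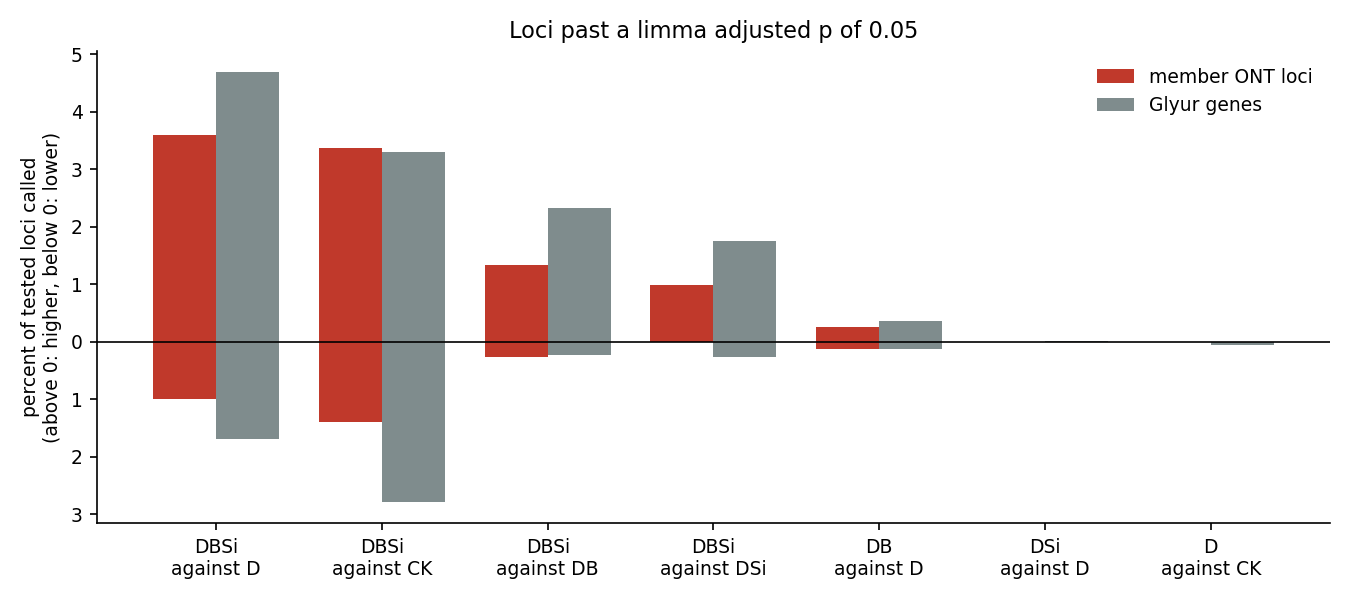
Percent of tested loci called by limma (y axis, higher above 0 and lower below it) in 7 comparisons (x axis) for member ONT loci and Glyur genes. The 4 comparisons of DBSi hold nearly all calls, with 106 members called against D and 110 against CK, while DSi against D and D against CK have no bar for members.

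The largest rises in DBSi over D were those of ONT.1281 and ONT.5823. ONT.1281 had 71.8, 179 and 124 CPM in DBSi, 19.6, 7.5 and 9.64 CPM in DSi, 20, 11.7 and 4.66 CPM in DB, 3.73, 4.28 and 1.52 CPM in D and 10.4, 3.41 and 2.03 CPM in CK. Its lowest DBSi library was above the highest library of any other group. The mean was 125 ± 53.4 CPM in DBSi and 3.17 ± 1.46 CPM in D (SD, n = 3 each), 39.4-fold higher (log2 difference 4.89, SE 0.56, limma adjusted p = 0.000157). Against CK it was 23.7-fold higher (limma adjusted p = 0.000372), against DB 10.3-fold higher (0.00403) and against DSi 10.2-fold higher (0.0073). These 4 calls remained in every alternative fit.

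ONT.5823 had 85, 122 and 112 CPM in DBSi, 32.7, 11.7 and 8.9 CPM in DSi, 6.58, 11.4 and 5.9 CPM in DB, 15.5, 12.8 and 2.73 CPM in D and 2.91, 5.69 and 9.58 CPM in CK. The DBSi libraries again lay above all others. Its mean was 106 ± 19 CPM in DBSi and 10.3 ± 6.73 CPM in D (SD, n = 3 each), 10.3-fold higher (log2 difference 3.48, SE 0.55, limma adjusted p = 0.00151). Against DSi it was 5.98-fold higher (limma adjusted p = 0.0203), a call lost without DSi-2, DSi-3 or any 1 of the DBSi libraries. Its isoforms were not used evenly over libraries, since ONT.5823.1 had 0, 45.6 and 66.4 CPM in DBSi and 0 CPM in all CK libraries.

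The largest falls in DBSi below D were those of ONT.19164 and ONT.4231. ONT.19164 had 0.601, 1.14 and 0.31 CPM in DBSi and 5.73, 8.88 and 10.9 CPM in D, 12.5-fold lower by means of 0.684 and 8.52 CPM (log2 difference -2.49, SE 0.63, limma adjusted p = 0.0311). The DBSi mean rests on 7 reads, and the call was lost without any 1 of the 6 libraries compared. ONT.4231 had 1.2, 0.285 and 0.31 CPM in DBSi, 0.311, 1.5 and 2.72 CPM in DSi, 2.99, 1.23 and 1.86 CPM in DB, 13.5, 2.63 and 7.29 CPM in D and 11.3, 41 and 28.7 CPM in CK. All 9 libraries that received G5, silicon or both lay below 3 CPM, as did D-2, and all 3 CK libraries above 11 CPM. It was 13.0-fold lower in DBSi than in D (log2 difference -2.29, SE 0.55, limma adjusted p = 0.0243). This call was lost without D-1, D-3, DBSi-2 or DBSi-3, and with DBSi and D alone in the fit.

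The members called in DBSi against D were also set against CK in the libraries of DB and DSi. These libraries are in neither mean of the contrast, but they shared the fit and so its estimate of the spread. Of the 83 higher ones, 64 (77.1%) had a higher mean in DB than in CK, against 47.8% of all members, and 63 (75.9%) had a higher mean in DSi than in CK, against 49.6%. Their median log2 difference from CK was 0.37 in DB and 0.3 in DSi. Of the 23 lower ones, 18 (78.3%) were below CK in DB and 15 (65.2%) in DSi, against 52.1% and 50.2% of all members. Among all genes called higher, 67.8% were above CK in DB, against 35.1% of all genes tested, and 73.2% in DSi, against 48.7%. Among all genes called lower, 90.4% were below CK in DB, against 64.9% of all genes tested, and 78.9% in DSi, against 51.3%. The share of members was the larger one among higher calls and the smaller one among lower calls. Over all members and all genes tested the shares already differed in those directions, by more in DB than in DSi. The comparisons of DB and of DSi share the CK libraries, and these shares carry no test.

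Against watered seedlings, DBSi differed at 110 members (4.76%, against 5.95% of all genes tested), 78 higher and 32 lower (3.37% and 1.38% of members, against 3.31% and 2.64%). At 10 CPM or more, 10.9% of members and 8.03% of Glyur genes were called, and under 3 CPM 2.87% and 2.31%. At 100 CPM or more the shares were 6.25% and 9.67%. The median log2 difference over all members was -0.056, against -0.1146 over all genes tested. With median-of-ratios scaling, which set the median over all genes at -0.0293, 92 of 119 members called were higher. ONT.4231 was 45.1-fold lower in DBSi than in CK (log2 difference -4.01, SE 0.55, limma adjusted p = 0.000652), with 6 reads in the 3 DBSi libraries and 278 in the 3 CK libraries. ONT.20810 had 10.2, 9.13 and 6.52 CPM in DBSi, 7.78, 21.6 and 35.4 CPM in DSi, 56.5, 11 and 19.2 CPM in DB, 25.2, 57.6 and 28.6 CPM in D and 364, 162 and 115 CPM in CK. It was 24.8-fold lower in DBSi than in CK (log2 difference -4.33, SE 0.6, limma adjusted p = 0.000645), and each CK library was above all 12 droughted ones. Its isoform ONT.20810.2 had 0 reads in all 3 DBSi libraries, and 121, 57.2 and 16.5 CPM in CK. The largest rises over CK were again ONT.1281 (23.7-fold) and ONT.5823, 17.5-fold (limma adjusted p = 0.000645). The count of 110 was 61 without CK-2, 62 without DBSi-2 and 54 without DBSi-3, and 63 with the DBSi and CK libraries alone in the fit.

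**Figure D5:**
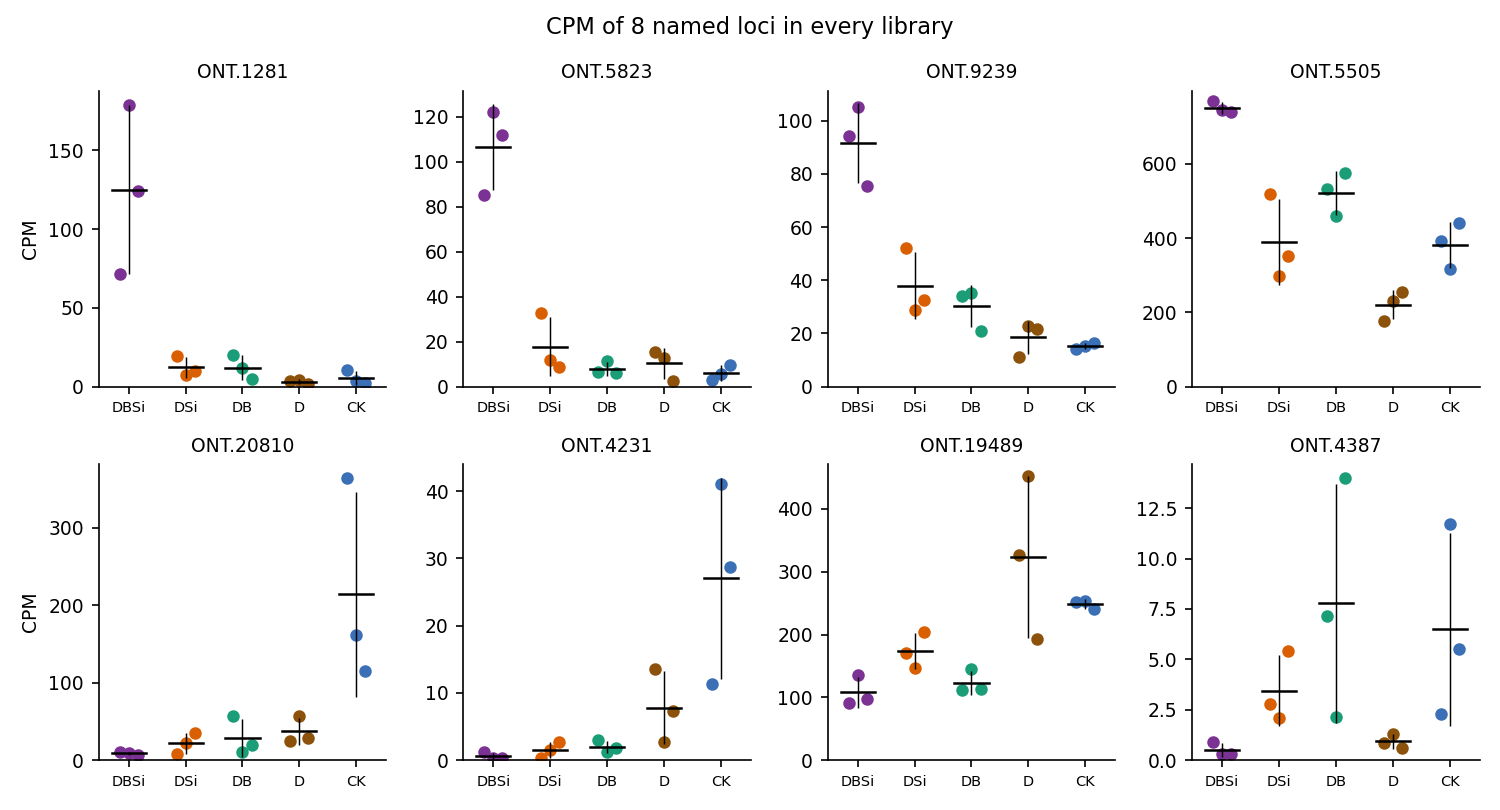
CPM (y axis, linear from 0) of 8 named members in DBSi, DSi, DB, D and CK (x axis), with a point for each library, a bar at the mean and a line of 1 SD to either side (n = 3). ONT.1281, ONT.5823 and ONT.9239 have all DBSi points above the other 12, and ONT.20810 has all CK points, at 364, 162 and 115 CPM, above the other 12.

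Adding silicon to G5-treated seedlings, which is DBSi against DB, gave 37 called members (1.6%, against 2.45% of all genes tested), 31 higher and 6 lower, with 2.22% and 0.225% of all genes tested called in these directions. The 2 largest rises were ONT.5823 (13.4-fold, limma adjusted p = 0.00251) and ONT.1281 (10.3-fold). The 2 largest falls were ONT.6909 and ONT.4387. ONT.6909 had 3.91, 2 and 1.86 CPM in DBSi and 32.3, 12 and 14 CPM in DB, 7.5-fold lower (log2 difference -2.42, SE 0.6, limma adjusted p = 0.0492). ONT.4387 had 0.901, 0.285 and 0.31 CPM in DBSi and 7.17, 2.15 and 14 CPM in DB, 15.6-fold lower (log2 difference -2.3, SE 0.55, limma adjusted p = 0.0405). The call of ONT.6909 was lost without CK-1, D-1, D-2, DSi-3 or any 1 of the DB and DBSi libraries. That of ONT.4387 was lost without CK-3, DB-1, DB-3, DSi-1, DSi-2 or any 1 of the D and DBSi libraries. The count was 20 without DB-1, 22 without DB-3, 21 without DBSi-2 and 24 without either DBSi-1 or DBSi-3, and 21 without DB-3, D-2 and CK-3 together.

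Adding G5 to silicon-treated seedlings, which is DBSi against DSi, gave 23 called members (0.995%, against 1.91% of all genes tested), all of them higher. Among all genes tested, 1.68% were called higher and 0.23% lower. The median level of the 23 was 10.6 CPM in DBSi and 2.16 CPM in DSi. The count was 36 without DSi-1, 3 without DSi-2 and 2 without DSi-3. It was 6 without DBSi-1, 8 without DBSi-2 and 7 without DBSi-3. Fitted on DBSi and DSi alone, limma called 8 members, of which 5 were higher.

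For G5 alone under drought limma called 9 members against D (0.389%, against 0.49% of all genes tested), 6 higher and 3 lower. Of all genes tested, 0.358% and 0.132% were called in these directions. All 3 DB libraries lay above all 3 D libraries in 200 members (8.65%, against 7.39%) and below them in 128 (5.54%, against 8.91%). ONT.5505, with 4 isoforms, stood at 531, 459 and 575 CPM in DB and 177, 232 and 254 CPM in D, 2.36-fold higher (log2 difference 1.25, SE 0.21, limma adjusted p = 0.0204). It stood at 768, 745 and 739 CPM in DBSi, 519, 298 and 353 CPM in DSi and 391, 317 and 440 CPM in CK, so that the D libraries were the lowest of the 15. ONT.11222 had 8.37, 12.9 and 8.07 CPM in DB and 2.58, 0.987 and 2.43 CPM in D, 4.89-fold higher (log2 difference 1.87, SE 0.38, limma adjusted p = 0.0453). Its D libraries too were the lowest of the 15, with 9.44 ± 0.654 CPM in DBSi, 9.83 ± 1.99 CPM in DSi and 6.07 ± 4.34 CPM in CK (SD, n = 3 each). It was 4.72-fold higher in DBSi than in D (limma adjusted p = 0.00871), a call kept in every alternative fit. In DSi it was 4.92-fold higher than in D, which was not called (limma adjusted p = 0.108). ONT.19489 was the single fall that met the rule for naming, with 111, 145 and 113 CPM in DB and 326, 452 and 193 CPM in D, 2.63-fold lower (log2 difference -1.31, SE 0.26, limma adjusted p = 0.041). It stood at 108 ± 24.2 CPM in DBSi, 174 ± 28.4 CPM in DSi and 249 ± 7.88 CPM in CK (SD, n = 3 each).

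The 9 calls were unstable. None of the 9 stayed called in all 15 fits that each left out 1 library. The count was 0 without D-1 or DB-3, 4 without D-2 or D-3, and 1 and 3 without DB-1 and DB-2. It was 4, 5, 5, 3 and 3 without CK-1, CK-3, DSi-1, DSi-2 and DBSi-2. Without DB-3, D-2 and CK-3 together it was 0. On all libraries limma listed 246 members at an unadjusted p under 0.05 (10.6%, against 12.2% of all genes tested). edgeR called 3 and DESeq2 29. The call of ONT.5505 was lost without D-1, DB-1 or DB-3. Among fits with 1 library left out, that of ONT.11222 was kept only without CK-1 or CK-2, and that of ONT.19489 only without CK-2, D-3, DSi-3, DBSi-1 or DBSi-2. All 3 of these calls were lost with DB and D alone in the fit. Those of ONT.11222 and ONT.19489 were also lost with no filter, without limma's trend and with replicate number in the fit. That of ONT.11222 was further lost with a pseudocount of 2 and in edgeR.

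For silicon alone under drought limma called 0 members against D (background 0.0265% of all genes tested). For drought alone it called 0 against CK (background 0.0486%). At an unadjusted p under 0.05 limma listed 231 members in DSi against D (9.99%, against 7.96% of all genes tested). In D against CK it listed 174 (7.53%, against 7.97%). edgeR called 0 in either, and DESeq2 called 10 in each. The DESeq2 calls were 7 higher and 3 lower in DSi against D, and 2 higher and 8 lower in D against CK. All 3 DSi libraries lay above all 3 D libraries in 211 members (9.13%, against 9.37% of all genes tested) and below them in 103 (4.46%, against 4.34%). All 3 D libraries lay above all CK libraries in 82 members (3.55%, against 3.13%) and below them in 159 (6.88%, against 8.78%). Without CK-1 or CK-3, limma called 2 members in D against CK, both lower, and without D-3 1. Without DB-3, D-2 and CK-3 together it called 3 in D against CK, all lower. In DSi against D it called 1 without CK-1 or D-3.

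The interaction of silicon and G5 over the 4 droughted groups, which takes the moisture and silicon of DBSi to be those of DSi, had 0 called members (background 0.132% of all genes tested). At an unadjusted p under 0.05 limma listed 203 members (8.78%, against 7.78% of all genes tested). edgeR called 0 and DESeq2 17. Without DSi-1 limma called 6 members, without DBSi-3 2, and without CK-2 or D-3 1.

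Isoform use was tested in the 266 members with 2 or more isoforms. In DBSi against D, diffSplice in limma called 1 of the 266 members (0.376%, against 1.5% of 7643 loci tested), and in D against CK 0 (background 0.275%). At an unadjusted p under 0.05 it listed 25 and 14 of the 266 members, beside 979 and 477 of all 7643 loci tested. edgeR and DESeq2 were not run on isoforms. The called locus, ONT.5472, had 4 isoforms and stood at 68.5 ± 27.1 CPM in DBSi and 48.3 ± 4.95 CPM in D (SD, n = 3 each). Its isoform ONT.5472.1 had 5.11, 14 and 3.41 CPM in DBSi, 1.24, 0 and 0.989 CPM in DSi, 0.897, 0 and 0.31 CPM in DB, 0, 0 and 0.304 CPM in D and 0.971, 0.569 and 0.29 CPM in CK. All DBSi libraries were above the other 12. ONT.5472.2, the leading isoform, took 81.4 ± 6.25% of the reads in DBSi, 97.4 ± 1.72% in DSi, 95.9 ± 0.318% in DB, 97.5 ± 0.677% in D and 97.9 ± 0.112% in CK (SD, n = 3 each). The adjusted p of diffSplice was 0.0354, and the call was lost without any 1 of the D libraries, DBSi-1 or DBSi-2 and with a pseudocount of 0.5. The count was 0 without D-2 or D-3, 3 without DB-1, and 2 without CK-3, DB-2, DSi-1, DSi-3 or DBSi-1. In D against CK it was 1 without CK-2, DSi-1 or DBSi-1.

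Members that shared an ID stem with a Glyur gene weighed little in these counts. Without the 77, 102 of 2235 members (4.56%) were called in DBSi against D, 104 (4.65%) in DBSi against CK, 35 in DBSi against DB, 23 in DBSi against DSi and 9 in DB against D. Of the 74 members with a single Glyur partner, 4 were called in DBSi against D, as were 8 of the partners, and 1 pair was called in both.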

How the data were processed

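The members and lists were chosen with earlier results of these data known. Per the labels' protocols, 1 µg of total RNA from each sample of whole seedlings was reverse transcribed, amplified by 14 PCR cycles and read on a nanopore instrument, and minimap2 is named in the submitters' processing notes. The sources used here give neither its version nor the tools for assembly and counting, the genome build or a rule for reads that match several loci. The authors deposited CPM values per gene and per isoform for each library, per the file headers. In the deposited CPM, 100% of values were whole multiples of 1 read within a tolerance of 0.01, which gave back 50341895 reads. Reads were amplified and carry no molecular identifiers, so a floor covers counting error only.

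Genes at 1 CPM in at least 3 libraries were tested on log2(CPM + 1) with limma 3.58.1 in R 4.3.3, with trend, all 15 libraries in 1 fit and Benjamini-Hochberg adjustment over all 22654 genes. Log2 differences on that scale understate the change of low loci, and fold values are ratios of mean CPM. Isoforms with Glyur IDs were joined to genes by their own ID stem. Those with ONT IDs were joined by exact equality of reads over 15 libraries, because the stem alone misplaces most of those. At 94 Glyur genes some reads stayed unplaced. Isoform use was tested with diffSplice. Single values were tested with exact permutation tests. edgeR 4.0.16 (quasi-likelihood test) and DESeq2 1.42.0 served as alternatives on these reads, beside other pseudocounts, filters and scalings, no trend, the compared groups alone, a replicate block and each library left out. The scripts were tested on simulated data with known changes.

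Loci named were the 5 most abundant, the 2 largest called rises and falls per comparison without overlap and with a higher group mean of 5 CPM or more, the 2 smallest p of the F-test, the 2 with most isoforms, the 2 with widest and the 2 with narrowest spread at 10 CPM or more, the 2 most abundant at 0 in a group, and called isoform use. Loci read mostly in 1 library, those at the edge of the filter, the interaction and the fit without 3 libraries were added after the data were seen.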

Additional observations from a re-analysis of the deposited data

Results flagged for a closer look

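ONT.4387 was singled out among the named loci because its response to each treatment turned round with the other present, with no overlap between the groups in any of the 4 comparisons. It had 0.901, 0.285 and 0.31 CPM in DBSi, 2.8, 2.1 and 5.44 CPM in DSi, 7.17, 2.15 and 14 CPM in DB, 0.86, 1.32 and 0.608 CPM in D and 2.27, 11.7 and 5.52 CPM in CK. All DB libraries lay above all D libraries, while all DBSi libraries lay below all DSi libraries. Likewise all DSi libraries lay above all D libraries, and all DBSi libraries below all DB libraries. The interaction was -3.45 on the log2(CPM + 1) scale (SE 0.78), and with a limma adjusted p of 0.113 over all genes tested it did not pass the threshold. The levels rest on 5 reads in DBSi, 38 in DSi, 76 in DB and 9 in D.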

How the results depend on the processing

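The gaps between members and Glyur genes in level and isoform number kept their direction and smallest possible p in every alternative (from -2.11 to -1.18 in log2 level, from -0.472 to -0.331 isoforms). Counts of called members moved by over 1.5 times as follows. With no filter the counts were 1 (D against CK), 4 (DB against D), 1 (DSi against D) and 1 (interaction), and without the trend 1 and 5 in D against CK and DB against D. A filter at 5 CPM gave 70 in DBSi against D and 15 in DBSi against DSi, with fewer loci tested. With the compared groups alone they were 1 in DB against D, 63 in DBSi against CK, 8 in DBSi against DSi and 1 for the interaction. edgeR called 3 in DB against D. DESeq2 called 10 in D against CK, 29 in DB against D, 10 in DSi against D, 48 in DBSi against DSi, 17 for the interaction and 191 in the F-test. Without DB-3, D-2 and CK-3 the counts were 3 in D against CK, 0 in DB against D and 21 in DBSi against DB. The cause of these shifts was not tested. A pseudocount of 0.5 left 0 members with called isoform use in DBSi against D. Replicate numbers did not pair the libraries, since same-numbered libraries had a mean correlation of deviations of 0.00881 and in 0 comparisons were all 3 pairs over 0.1. With a replicate block limma called 2 members in DB against D, 83 in DBSi against D, 98 in DBSi against CK, 32 in DBSi against DB, 19 in DBSi against DSi and 54 in the F-test, and 6 of 15 libraries correlated best with their own number.

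With each library left out in turn, counts ran from 0 to 2 in D against CK, 0 to 12 in DB against D, 0 to 1 in DSi against D, 43 to 120 in DBSi against D, 54 to 124 in DBSi against CK, 20 to 40 in DBSi against DB and 2 to 36 in DBSi against DSi. They ran from 0 to 6 for the interaction, 31 to 78 in the F-test, 0 to 1 and 0 to 3 for isoform use in D against CK and DBSi against D. Differences in the share of reads ran from -0.598 to -0.0708 points in D against CK, 0.313 to 0.56 in DB against D, -0.311 to 0.284 in DSi against D and 0.0277 to 0.627 in DBSi against D. The gaps ran from -1.95 to -1.93 in level and -0.473 to -0.47 in isoforms. Of 442 settings of the named calls, 352 kept the call, 90 lost it and none changed direction. The median member stood at 2.76 CPM, where 1 CPM is 4 to 5 reads, so the values of most members rest on few reads per library.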
